A study of Drosophila melanogaster with 5 samples.

Results

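The genes described are 10 markers of the transmitter classes of the Drosophila nervous system: VGlut, VAChT, ChAT, VGAT, Gad1, ple, Ddc, Vmat, SerT and Tdc2. They were chosen by symbol and not by their values. ChAT is listed under its older symbol Cha. All 10 were found among 16680 genes in the table of mean normalized counts and all 10 passed its minimum of 10, as did 11729 genes with a value above 0 in both groups of both tables used.

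RNA-seq was made from whole CNS of larvae in the third instar, in 3 control samples and 2 samples in which the IP3 receptor was knocked down by RNAi. The control genotype was UAS-dsitpr/+; UAS-dicer/+ and the knockdown genotype was ElavC155GAL4/+; UAS-dsitpr/+; UAS-dicer/+. Both groups carried the RNAi and dicer transgenes, the controls had no driver, and larvae were taken at 84 h after egg laying with about 15 CNS pooled in each sample. The labels and a figure legend of the study name the elav driver, which is active throughout the nervous system, whereas its methods section names VGN6341-GAL4, a driver for a subset of glutamatergic neurons. The driver of the labels is used here. The deposited tables give 1 value per gene and group and no spread between samples, so no test was made, and a gene is called lower or higher when its knockdown value was at least 25% below or above its control value in both the FPKM and the normalized count table, a ratio of at most 0.75 for lower genes.

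A neuron's transmitter is set by the enzyme that makes it and by the carrier that loads it into synaptic vesicles. In insects acetylcholine is the main excitatory transmitter of the brain, glutamate is used by motor neurons and by many interneurons, and GABA is the main inhibitory transmitter. Dopamine, serotonin and octopamine are made by small sets of neurons that modulate the rest, and the enzymes of dopamine synthesis also act in the epidermis, where dopamine derivatives harden and color the cuticle.

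The labels were checked first. Itp-r83A, the IP3 receptor gene, had a mean normalized count of 3063 in the controls and of 2032 and 1995 in the 2 knockdown libraries. It has 10331 exon bases, and long genes had lower ratios in these data, as described below. Its log2 ratio was -0.61, and the median of the bin of the longest genes was -0.42. The part of length in its value was not tested. Dcr-2, carried as a transgene, rose from 31.3 to 96.7 FPKM, and w, the eye color gene often used to mark transgenes, rose from 13.4 to 116 FPKM. The group means could be taken apart into whole reads, because each library contributes steps of its own size. For the knockdown, all 15054 genes above 0 had exactly 1 combination of reads, which gave a deeper library of 13.5 M reads and a shallower one of 10.4 M (M, reads in units of 10 to the power 6). Neither could be tied to a sample label. For the controls this worked only for low values, and the 10 genes have more than 1 possible combination each, so their control value is the mean alone.

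The most highly expressed of the 10 was Gad1, the enzyme that makes GABA, at 107 FPKM in the controls. It was followed by Ddc, the decarboxylase of dopamine and serotonin synthesis, at 87.6 FPKM, and by ChAT, which makes acetylcholine, at 67.7 FPKM. VGAT and Vmat, the vesicular carriers of GABA and of monoamines, both stood at 60.1 FPKM and on this measure did not differ beyond counting error. VGlut, the vesicular glutamate carrier, had 47.9 FPKM. Tdc2, the neuronal tyrosine decarboxylase that starts octopamine synthesis, had 36.0 FPKM. The lowest levels were those of ple, the tyrosine hydroxylase that starts dopamine synthesis, at 31.7 FPKM, of VAChT, which loads acetylcholine, at 26.2 FPKM, and of SerT, the serotonin reuptake carrier, at 25.3 FPKM. VAChT and SerT were the other neighbors in this order with overlapping counting intervals. These ties held for FPKM only. By normalized counts per kilobase of annotated exon, VGAT had 664 and Vmat 354, and VAChT had 350 and SerT 265. Of the 45 pairs of genes, 41 kept their FPKM order on that measure. The whole range of the 10 lay between the 37.4th and the 88.4th percentile of the genes compared. Duplicate reads had been removed, which limits high levels, and the part of this in the order was not tested.

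**Figure D1:**
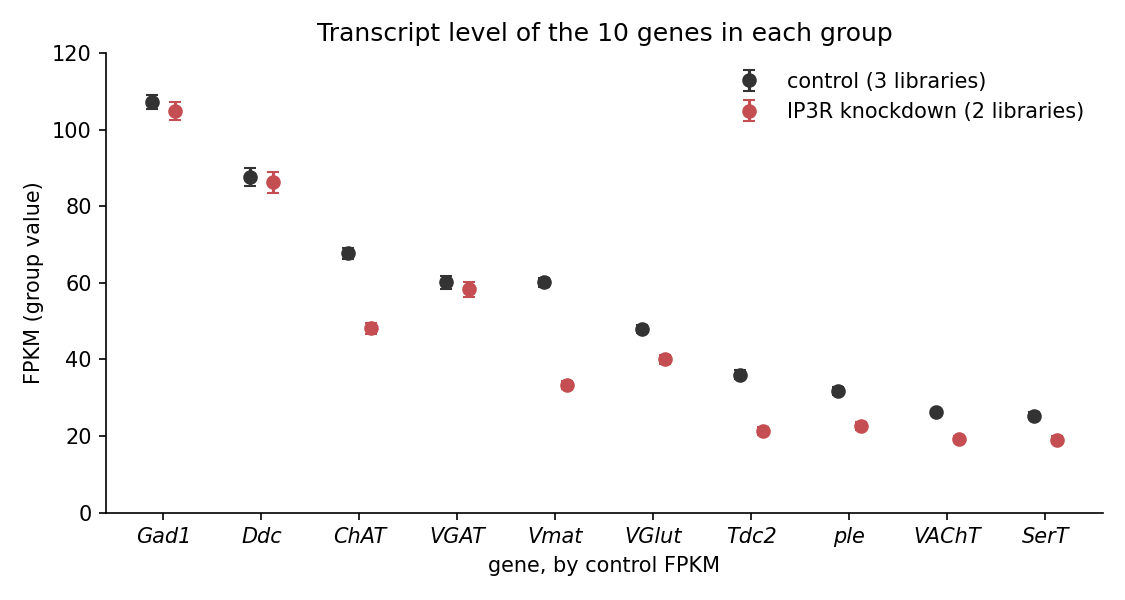
Group FPKM of the 10 genes in control and IP3R knockdown CNS, ordered by control FPKM, with bars for the 95% counting interval, which holds no spread between samples. Gad1, Ddc and VGAT have nearly equal levels in both groups, whereas Vmat lies at 60.1 in the controls and 33.4 in the knockdown.

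Of the 10 genes, 5 were lower in the knockdown in both tables (VAChT, ChAT, ple, Vmat and Tdc2), where 15.2% of all genes compared were. None was higher, where 11.7% of all genes were. The median log2 ratio of normalized counts was -0.43 over the 10 genes and 0.03 over all genes compared. In whole CNS tissue, fewer cells of a type and less RNA per cell cannot be told apart. When each knockdown library was set by itself against the control mean, 2 genes, Vmat and Tdc2, were at or below 0.75 in both, where 12.4% of all genes were. Both knockdown libraries were below the control mean for VGlut, VAChT, ChAT, Vmat, SerT and Tdc2, and by little for VGAT, at 94.9% and 99.8%. For Gad1, Ddc and ple they stood on either side of it. The share of all genes with both libraries below the control mean was not computed. The call of ple rested on the shallower library, since without it the ratio of ple was 1.19.

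**Figure D2:**
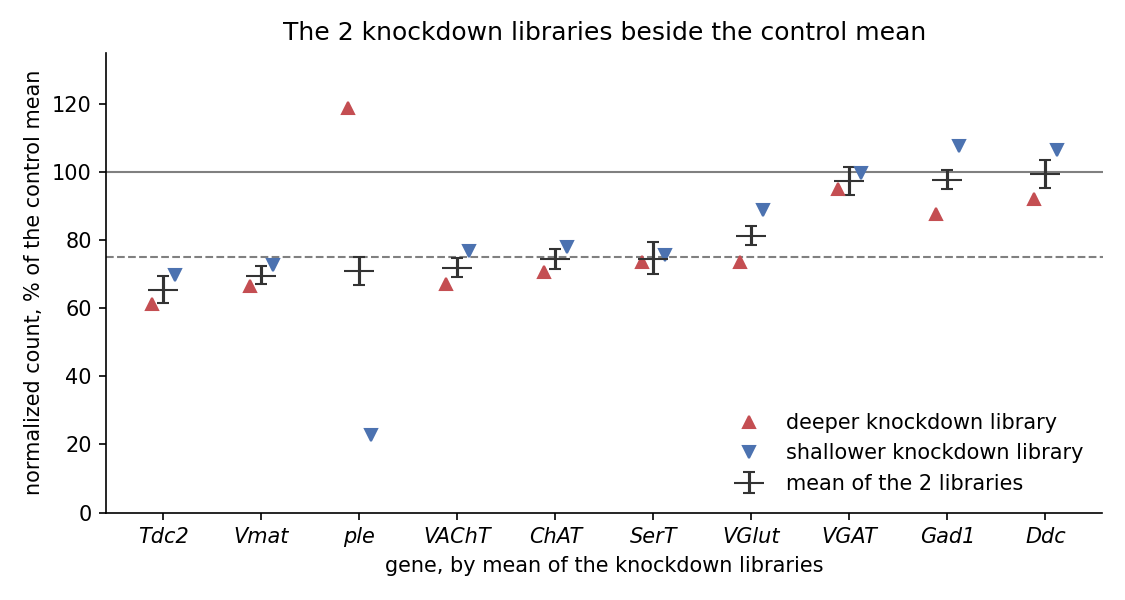
Normalized count of each gene in the 2 knockdown libraries as a percent of the control mean, with the mean of both and its 95% counting interval. The dashed line marks 75%. For 9 genes the libraries lie close together with the shallower one slightly higher, and for ple they lie at 119% and 22.8%.

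The cholinergic pair was lower in both tables. ChAT had a control mean of 2658 normalized counts and 1882 and 2072 in the deeper and the shallower knockdown library, which left 74.4% of the control mean, with a 95% counting interval of the ratio from 0.716 to 0.773. VAChT had 2486 in the controls and 1669 and 1909 in the knockdown libraries, a ratio of 0.72. Both libraries were below the control mean for both genes, although the shallower one remained above the limit of 0.75. These genes are not independent measurements. VAChT lies within the first intron of ChAT, an arrangement called the cholinergic locus, and in Ensembl release 115 both start at the same base of chromosome 3R and share 606 exon bases, so the reads assigned to each are uncertain. Of the other genes of the acetylcholine cycle, ChT, the choline carrier that returns choline to the terminal, stood at a ratio of 0.69 by FPKM and 0.76 by counts, and Ace, the enzyme that breaks acetylcholine down, stood at 0.88 and 0.92. Thus 2 of the 4 genes of this list were lower and none was higher, where 15.2% and 11.7% of all genes compared were. The 2 lower genes are ChAT and VAChT, which are not independent.

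Glutamate and GABA markers passed neither limit. VGlut had a control mean of 3215 and knockdown values of 2367 and 2861, a ratio of 0.81 by counts and 0.84 by FPKM. The deeper library was thus at 73.6% and the shallower at 89.0% of the control mean. None of the 9 genes of glutamate loading, uptake and turnover was lower or higher, and its most abundant member, the glutamine synthetase Gs2, had 181 FPKM in the controls and 186 in the knockdown. VGlut was the lowest of the 9 in log2 ratio, at -0.30, whereas the other genes, which act largely in glia or in metabolism of all cells, lay between 0.00 and 0.14.

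Gad1 had 3979 normalized counts in the controls and 3495 and 4285 in the knockdown libraries. VGAT had 1793 in the controls and 1703 and 1789 in the knockdown libraries. The counting intervals of both ratios, from 0.950 to 1.01 for Gad1 and from 0.933 to 1.02 for VGAT, included 1. None of the 5 genes of the GABA list passed a limit. Its most abundant member was Gabat, the transaminase that degrades GABA, at 144 FPKM in the controls and 157 in the knockdown. The GABA uptake carrier Gat had a ratio of 1.15 in both tables.

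The other genes were also set against Gad1 within each library, although the normalized counts were already scaled for depth. This comparison was chosen after the values had been seen. VAChT amounted to 62.5% of Gad1 in the control means and to 47.7% and 44.5% in the deeper and the shallower knockdown library. VGlut amounted to 80.8% in the controls and to 67.7% and 66.8% in the knockdown libraries. On this scale the knockdown libraries lay closer together than on normalized counts for VGlut, VAChT and Tdc2, and farther apart for ChAT, Vmat and SerT, with 83.7% and 70.2% of the control value for SerT. VGAT showed no common direction, with 45.1% in the controls and 48.7% and 41.7% in the knockdown libraries. Gad1 itself was 1.23-fold higher in the shallower library, which sets how far apart the libraries lie on this scale. Relative to Gad1, both knockdown libraries were below the controls for VGlut, VAChT, ChAT, Vmat, SerT and Tdc2. Since the ratio of Gad1 was 0.98, genes with lower mean ratios stay lower on this scale, and it adds no separate evidence. The share of the control value that remained on this scale ran from 64.7% for Tdc2 in the shallower library to 83.8% for VGlut in the deeper one.

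Among the monoamine genes, Tdc2 and Vmat were lower in each library. Tdc2 had a control mean of 1207 and knockdown values of 739 and 841, which left 65.5% by counts and 59.1% by FPKM. Vmat had a control mean of 2875 and knockdown values of 1910 and 2093, which left 69.6% by counts and 55.5% by FPKM. Vmat is also the gene for which the tables differed most. Of its 8134 exon bases, 2129 are shared with CG13330 on the opposite strand, and whether the counting used strand is not stated. CG13330 had 73.4 FPKM in the controls and 55.7 in the knockdown, and its part in the value of Vmat was not tested.

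SerT missed the limit in 1 table. Its ratio was 0.746 by counts and 0.754 by FPKM, with a control mean of 987 and knockdown values of 726 and 746. Both libraries were thus near 75% of the control mean. By counts SerT and ChAT, at 0.744, were both just inside the limit, and by FPKM SerT was just outside it and VAChT, at 0.735, just inside. Ddc did not share these lower values, with 1906 in the controls and 1757 and 2029 in the knockdown libraries, a ratio of 0.99 with a counting interval from 0.953 to 1.04.

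The value of ple rested on 1 library. It had a control mean of 1178, with 1401 in the deeper and 269 in the shallower knockdown library, 5.22-fold apart. The knockdown mean of 835 therefore describes neither library, and the deeper library was above the control mean while the shallower was far below it. Of the 10 genes ple alone differed by 2-fold or more between the knockdown libraries, where 9.05% of all genes compared did. A fold of deeper over shallower at least as high as that of ple was found in 256 genes, or 2.18%. The other 9 genes were higher in the shallower library, by at most 1.23-fold (Gad1), whereas the median of shallower over deeper was 1.00 over all genes compared. That median includes low genes and was not matched for level. Taken in either direction, the fold between these libraries had a median of 1.09 and a 95th percentile of 1.31 in the 7216 genes with a mean of 500 or more over all libraries.

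Marker genes of tissues outside the CNS also differed between the knockdown libraries. The summed normalized counts of 5 hemocyte genes were 13996 in the controls, 9741 in the deeper and 2908 in the shallower library. Those of the fat body list were 15366, 10782 and 4362, those of body wall muscle 24647, 16638 and 8879, and those of epidermis and cuticle 8327, 4378 and 2560. All these lists were thus highest in the controls and lowest in the shallower library, in which ple was also lowest. Of the epidermis and cuticle genes 9 of the 13 that passed the minimum were lower in the knockdown, as were all 8 of muscle, 4 of 5 of the fat body, 4 of 5 of hemocytes and all 7 of the salivary gland that passed. Of all genes compared 15.2% were lower. The cuticle gene Cpr47Ea was at 0 in every library, and the salivary gland genes Sgs5, ng1 and ng2 were at 0 in the shallower library, Sgs5 also in the deeper one. The part of these tissues in the value of ple was not tested.

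Ddc, which acts with ple in the epidermis, did not differ in the same way between the libraries. The other genes of that tissue varied in this. Of the 13 epidermis and cuticle genes that passed the minimum, 12 were higher in the deeper library, but only 6 by 2-fold or more. The laccase gene stw, whose product oxidizes cuticle catechols, had 338, 404 and 215 in the control libraries and 306 and 93.8 in the deeper and the shallower knockdown library. The groups overlapped, with the deeper library among the controls. The neuronal list of 7 genes summed to 27250 in the controls and to 20036 and 23338 in the deeper and the shallower library. The median log2 ratio of this list was -0.26, and 3 of its genes were lower. These were elav, brp and Appl, with 10715, 13371 and 6383 exon bases. They belong to the bin of the longest genes described below, in which 46.5% of all genes were lower. Syt1, onecut and fne, with 7190, 6742 and 9561 exon bases, belong to the same bin and were not lower. None of the 7 glial genes was lower or higher, and among 6 neuroblast genes 1 was lower and 1 higher. All glial genes of the list are shorter than that bin, and the part of length in this contrast was not tested. The deeper-to-shallower ratio of the list sums was 0.859 for neurons, 0.849 for glia and 0.859 for neuroblasts, on the same side of 1 as that of the 9 genes other than ple. The part of this shared difference in their values was not tested.

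**Figure D3:**
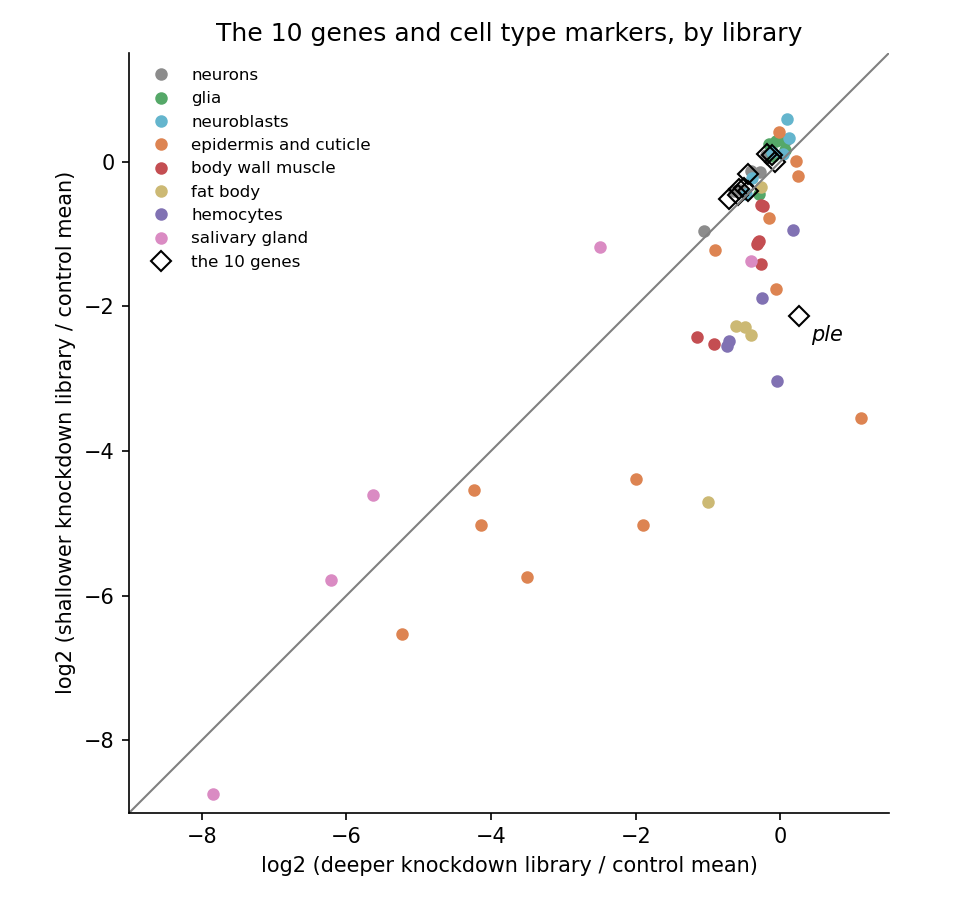
Log2 ratio to the control mean in the deeper (horizontal) and the shallower (vertical) knockdown library for the 10 genes and for markers of 8 cell types or tissues, with the line of equal values; genes at 0 in the shallower library are not drawn. The gene ple lies at 1.19 times the control mean in the deeper and 0.228 times in the shallower library, below the line as most markers of fat body, hemocytes and muscle do.

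Other genes of amine metabolism showed single changes. Of the 10 genes of monoamine synthesis 3 were lower (ple, Tdc2 and Hn) and none higher, where 15.2% and 11.7% of all genes compared were. Hn encodes phenylalanine hydroxylase, which makes tyrosine. Its control libraries could be read and had 314, 333 and 288 normalized counts, against 47.0 in the deeper and 24.6 in the shallower knockdown library, so that 11.5% of the control mean remained. All controls were far above both knockdown libraries. The part of tissues outside the CNS in the value of Hn was not tested. Catsup, a negative regulator of tyrosine hydroxylase and the most abundant gene of that list, had 93.0 FPKM in the controls and 90.5 in the knockdown. Trh, the neuronal tryptophan hydroxylase of serotonin synthesis, had a ratio of 0.85, Tbh, which converts tyramine to octopamine, of 0.88, and Hdc, which makes histamine, of 0.82.

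Of the 10 genes of monoamine loading, uptake and breakdown, 3 were lower (Vmat, Balat and t) and 1 was higher (b), where 15.2% and 11.7% of all genes compared were. Vmat itself was the most abundant. Balat, a carrier of beta-alanine, had 217, 227 and 180 normalized counts in the control libraries and 139 and 154 in the knockdown libraries. The hydrolase gene t (tan), which frees dopamine and histamine from their beta-alanine conjugates, had 53.5, 38.0 and 53.3 in the controls and 27.9 and 10.6 in the knockdown libraries. The gene b (black), whose enzyme makes beta-alanine, had 16.9, 17.2 and 10.9 in the controls and 21.8 and 41.1 in the knockdown libraries. Both t and b are low, at under 3 FPKM in both groups, and e (ebony), whose enzyme joins beta-alanine to dopamine, passed no limit, with a ratio of 1.12 by counts. The groups did not overlap in Hn, Balat, t or b. Among the 6 related genes whose 5 libraries could all be read, 3 had both knockdown libraries below all controls and 1 had both above, where 20.5% and 24.2% of all 3821 such genes did. None of the 5 genes that make or recycle tetrahydrobiopterin, the cofactor of tyrosine and tryptophan hydroxylase, was lower or higher. The most abundant of these, Pcd, had 119 FPKM in the controls and 128 in the knockdown.

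**Figure D4:**
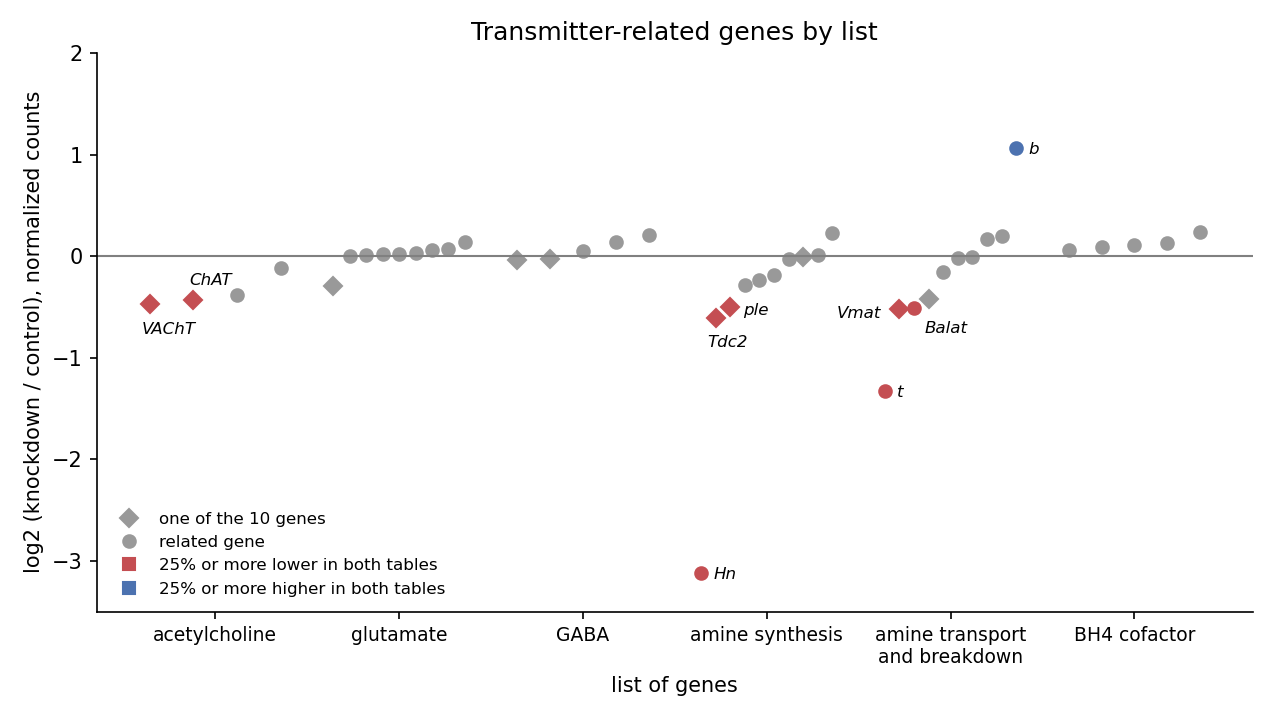
Log2 ratio of mean normalized counts, knockdown to control, for each gene of the 6 lists of transmitter-related genes. Diamonds are the 10 genes, and color marks genes past the limit in both tables; Hn lies lowest at -3.12 and b highest at 1.06, and no gene of the glutamate, GABA or cofactor lists is colored.

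The 10 genes have long transcripts, and in these data long genes had lower ratios. The median length covered by exons was 3765.5 bases for the 10 genes and 1898 for all genes compared. When all genes were divided into 10 bins of equal size by exon length, the median log2 ratio was -0.42 in the bin of the longest genes, which holds VGlut, VAChT and Vmat, and 46.5% of the genes of that bin were lower. In bin 9, with ChAT and ple, the median was -0.17. In bin 8, with Gad1 and SerT, it was -0.04, in bin 7, with Ddc and VGAT, 0.02, and in bin 6, with Tdc2, 0.05. Set against the median of their own bin on normalized counts, Tdc2 was at -0.66, SerT at -0.39, ple at -0.33 and ChAT at -0.26 on the log2 scale. Vmat was at -0.10, VAChT at -0.05 and VGlut at 0.12, and Gad1, Ddc and VGAT lay between -0.06 and 0.00. On counts, VAChT and Vmat thus stood close to the median of genes of their length, and Tdc2 farthest below. By FPKM the log2 ratio of Vmat was lower, at -0.85. When ratios were divided by the median of the bin, only Tdc2 remained at or below 0.75 in both tables, where 11.8% of all genes did.

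**Figure D5:**
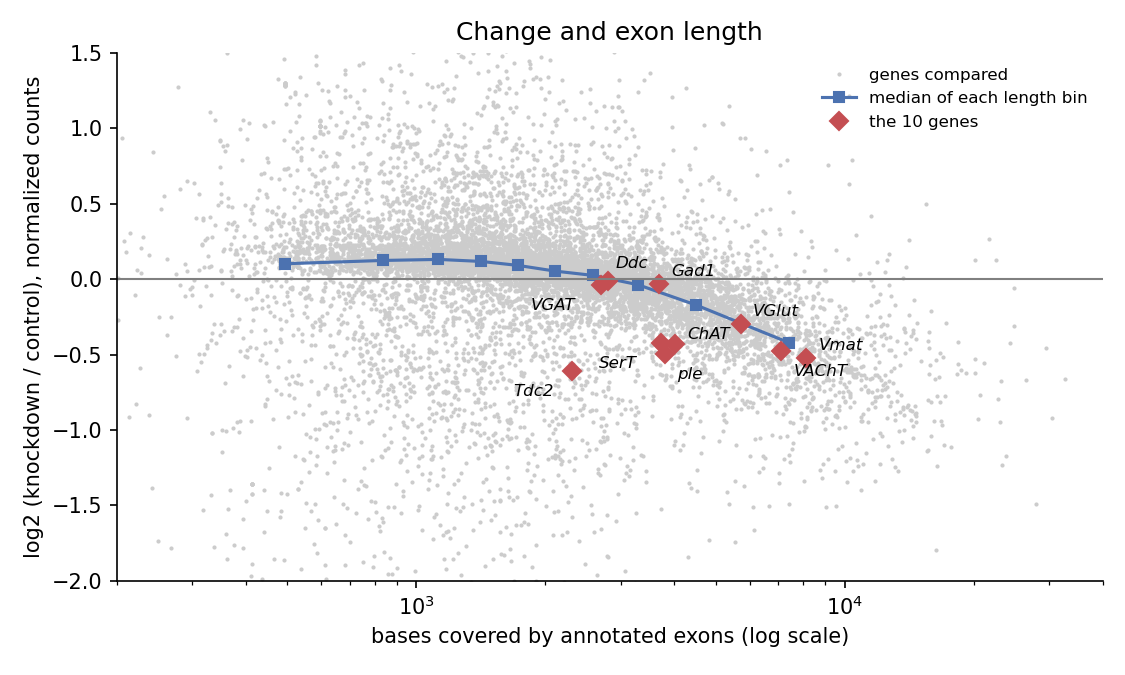
Log2 ratio of mean normalized counts against exon length (log scale) for the genes compared, with the median of each bin of exon length at its median length; the vertical axis shows ratios from -2 to 1.5 only. VGlut, VAChT and Vmat lie near the median line of long genes, and Tdc2, SerT, ple and ChAT lie below it.

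The authors removed duplicate reads, which limits how many reads a stretch of transcript can hold. Per the study's methods, most reads were lost in this step. The 10 genes had between 0.265 (SerT) and 1.08 (Gad1) reads per exon base in the control mean, against a median of 0.381 and a level of 2.01 above which only the top 0.1% of genes lay. Gad1, the highest, lay nearest to that level, followed by Ddc at 0.68 and by VGAT and ChAT at 0.66. The part of this limit in the levels and ratios of the 10 genes was not tested.

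The genes lie apart on the genome except for the cholinergic pair, in coordinates of dm6 as annotated in Ensembl release 115. VGlut is at 2L:2400295-2410662 on the plus strand and Ddc at 2L:19116483-19120306 on the minus strand. Vmat at 2R:13513132-13534251, VGAT at 2R:14198478-14201249, Tdc2 at 2R:6684745-6689974 and SerT at 2R:24404595-24411074 are all on the minus strand. Gad1 at 3L:4074077-4088744 and ple at 3L:6713356-6719525 are on the minus strand, and VAChT at 3R:18705501-18718916 and ChAT at 3R:18705501-18732344 on the plus strand. Ddc shares 88 exon bases with CG10561 and VGlut 39 with CG18641, both on the opposite strand, and CG18641 had under 1 FPKM in both groups. The opposite-strand genes Rpp25 at Tdc2 and CG14989 at Gad1 overlap without shared exon bases, and no annotated gene overlaps VGAT, ple or SerT.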

How the data were processed

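RNA of 3 control and 2 IP3R knockdown samples was sequenced. Per the labels and methods, the authors aligned reads to dm6, removed duplicates with Samtools and counted reads with GenomicRanges; the submitters' processing notes list TopHat2 2.0.11, Cuffdiff 2.2.0, CASAVA, DESeq and edgeR. The authors' deposited CuffDiff table gives group FPKM, and their DESeq table gives group means of normalized counts, a signal and not whole counts. Its header names no groups; its columns were assigned from their lowest values, which fall on steps of 3 libraries in one and 2 in the other. Columns of the authors' own comparisons (fold changes, test statistics, p-values and the whole edgeR table) were not used. There were 0 columns with a value per library.

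Genes were compared if their mean normalized count reached 10 and no group value was 0 in either table. The limit of 25% is the minimum change in the study's methods. Whole reads were recovered by solving each group mean for integer reads per library, a procedure tested on simulated data. A control value was used where 1 combination fitted. Counting intervals (95%, Poisson) cover counting error only. Exon lengths came from Ensembl release 115, matched for 99.0% of genes. The deposited means summed to 12.7 M for control and 11.9 M for knockdown. Scripts ran under Python 3.11.15 with SciPy 1.17.1 and NumPy 2.4.6, tables were read with pandas 2.3.3, and plots were drawn with matplotlib 3.10.9.

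The genes and lists were chosen with earlier results of these data known. Named are the 10 genes, every related gene past the limit and the most abundant of each list, overlapping genes and 3 label checks. ChT, Ace, Gat, Trh, Tbh, Hdc, e and stw were named after their values had been seen, as were the other marker genes outside the related lists. Alternatives changed the fold limit, the table, the filters, the pseudocount, the exon-length scaling and the knockdown library left out.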

Additional observations from a re-analysis of the deposited data

How the results depend on the processing

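Of the 10 genes, 5 were lower with the limits used. A 1.5-fold limit left 1 (10.8% of all genes), a 2-fold limit 0 (5.36%), and scaling by exon length 1 (11.8%). The requirement in each knockdown library, chosen after seeing the data, left 2 (12.4%). Leaving out 1 knockdown library, also chosen after seeing the data and run on counts alone, gave 3 (without the deeper, 20.9% of all genes) to 6 (without the shallower, 15.4%). With both knockdown libraries, counts alone gave 6 (17.2%). The ratio of ple turned from 0.709 to 1.19 without the shallower library and was 0.228 without the deeper. With the 1.5-fold limit the lower genes became 0 in the acetylcholine and 1 in the monoamine loading list. Leaving out a library gave 0 to 3 lower acetylcholine genes, 0 to 1 lower glutamate genes, 2 to 5 lower and 0 to 2 higher monoamine synthesis genes, and 3 to 5 lower and 1 to 2 higher monoamine loading genes. The moves under other fold limits follow from how these alternatives are built. The moves with a library left out come with differences between the 2 knockdown libraries, such as 1401 against 269 for ple. The cause of these differences was not tested. The cause of the move under exon-length scaling was not tested. In the other 67 values no count moved by over 1.5 times, and the median log2 ratio of the 10 genes stayed below 0. Leaving out each control library was not run, since the control reads of the 10 genes were not resolved. No paired analysis was possible because the tables hold group values that carry no replicate number. With 2 knockdown libraries and control means, the spread between control samples is unknown for these genes, and low genes such as t and b rest on few reads.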
